A study of Homo sapiens with 8 samples.

Results

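The genes followed here encode proteins that lie along the actin filament and set how myosin engages it: the tropomyosins TPM1, TPM2, TPM3 and TPM4, caldesmon (CALD1), the calponins CNN2 and CNN3, and troponin T of cardiac muscle (TNNT2). They were chosen by gene symbol, with earlier results of these data known. All 8 were found among the 27696 rows of the count table. All 8 were also among the 13798 genes with enough counts to be tested. The RNA came from IMR90, a line of human lung fibroblasts, after 3 days in medium that IMR90 ER:RAS cells had conditioned. These donor cells carry a RAS oncogene fused to a hormone-binding domain of the oestrogen receptor, which 4-hydroxytamoxifen (4-OHT) switches on to drive senescence. The medium was taken at day 0, 4, 7 or 10 of 4-OHT, which gives the groups their names (D0, D4, D7 and D10). There were 2 independent experiments with 1 library per group in each, hence 8 libraries in 4 groups, and replicate 1 and replicate 2 are called experiment 1 and experiment 2. The D0 group also received medium from ER:RAS cells, and medium that no cell had conditioned is not among the groups, so every change described below is relative to day 0 medium. The recipient cells were all of a single fibroblast line, and the comparison asks how the secretions of progressively senescent cells change the RNA of their neighbours.

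Tropomyosins are coiled-coil dimers that polymerise head to tail in the groove of the actin filament and decide which myosins and other binding proteins reach it. Caldesmon and the calponins bind the same filament and restrain actomyosin, caldesmon through tropomyosin as well. CNN2 and CNN3 are the calponins of non-muscle cells, whereas troponin T anchors the calcium-sensing troponin complex to tropomyosin in striated muscle, where TNNT2 is the cardiac form. In fibroblasts the tropomyosins build stress fibres, and their amount is known to increase as the cells become contractile myofibroblasts.

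The 4 tropomyosin genes are close copies, so the start of the coding sequence of TPM1, TPM2 and TPM4 is shown to make clear how far reads could be told apart. In each line 60 coding bases are printed from the reference transcripts (GENCODE 29, GRCh38), and capitals mark the bases that differ from TPM1. The TPM1 stretch lies at chr15:63042830-63042889 on the plus strand, that of TPM2 at chr9:35689758-35689817 on the minus strand and that of TPM4 at chr19:16067625-16067684 on the plus strand.
TPM1: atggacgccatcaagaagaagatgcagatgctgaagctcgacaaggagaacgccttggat
TPM2: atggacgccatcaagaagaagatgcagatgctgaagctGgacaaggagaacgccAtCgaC
TPM4: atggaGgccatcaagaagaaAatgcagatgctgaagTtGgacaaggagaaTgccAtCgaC

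Over this stretch TPM2 differed from TPM1 at 4 bases and TPM4 at 8. It was picked as the 60-base window of TPM1 with the fewest total differences from TPM2, TPM3 and TPM4. The likeness over it is therefore not typical of the genes. The longest run of identical bases between any transcripts of a tropomyosin pair was 40 for TPM1 and TPM2, 39 for TPM3 and TPM4, and 35 for TPM2 and TPM4. The other pairs shared runs of 21 to 27 bases, and CNN2 and CNN3 shared 24. No stretch of 50 bases was shared between any of the 8 genes. With genes outside the set, 7.14% of the 50-base words of TPM4 and 3.25% of those of TPM3 were shared, between 0.738% and 1.13% for TPM1, CNN2 and TNNT2, and none for TPM2, CALD1 and CNN3. Of their annotated pseudogenes 6 were in the table. TPM3P9 had 13 to 27 counts per library, and the other 5 had at most 6 counts in any library, against at least 2356 counts for TPM3 and 3385 for CNN2.

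The genes are spread over 5 chromosomes. The identifiers in brackets are those of the count table, and for TPM1, TPM2 and TPM4 their version differs from that in GENCODE 29. Positions and exon bases are those of GENCODE 29. On GRCh38 as annotated in GENCODE 29, TPM1 (ENSG00000140416.19) lies at chr15:63042632-63071915 on the plus strand, TPM2 (ENSG00000198467.13) at chr9:35681992-35690121 on the minus strand, TPM3 (ENSG00000143549.19) at chr1:154155304-154194648 on the minus strand and TPM4 (ENSG00000167460.14) at chr19:16067021-16103005 on the plus strand. CALD1 (ENSG00000122786.19) lies at chr7:134744252-134970728 on the plus strand, CNN2 (ENSG00000064666.14) at chr19:1026581-1039068 on the plus strand, CNN3 (ENSG00000117519.15) at chr1:94896949-94927278 on the minus strand and TNNT2 (ENSG00000118194.18) at chr1:201359008-201377762 on the minus strand. Genes on the opposite strand cover 21.4% of the exon bases of TPM1, 9.60% of those of TPM4 and 9.27% of those of CNN2. Whether counting used strand was not given in the sources used here. Most of the overlap of TPM1 is with TPM1-AS (2070 bases, against 691 for AC079328.2). No row with the symbol TPM1-AS was found in the count table. The other overlapping genes held few reads, with 0 to 5 counts for AC079328.2 over TPM1, 21 to 50 for AC008894.3 over TPM4 and 1 to 5 for AC011558.1 over CNN2. LAD1, which shares 1.12% of the exon bases of TNNT2 on the same strand, had 1 to 3 counts.

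Total counts ran from 11708193 to 13395912 per library. Levels are given as CPM, the read count scaled by the effective library size that edgeR's TMM method sets, and changes as log2 fold changes. All 13798 genes entered edgeR's quasi-likelihood test, and a gene was called at a Benjamini-Hochberg adjusted p under 0.05. The experiments differed from each other, with 4805 genes (34.8%) called between them, so the fit was repeated with the experiment as a block, and DESeq2 was run as well. Over the whole table, edgeR without the block called no gene at D4 or D7 (0 and 0) and 40 at D10. In that fit 409, 599 and 1095 genes had an unadjusted p below 0.05. With the block edgeR called 38, 172 and 688 genes at D4, D7 and D10, and DESeq2 called 44, 112 and 379. As a check of cell type, the 8 fibroblast markers summed to between 45278 and 57265 CPM at D0. At D10 they summed to 47707 CPM in experiment 1 and 20531 in experiment 2, where collagen RNA was low, with 1295 CPM of COL1A1 against 9432 in experiment 1. The values of the 8 genes are therefore given for each experiment, and the part of this library in them was not tested. RNA was measured in bulk, so a smaller share of cells and less RNA per cell cannot be told apart.

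With D10 medium all 8 genes had a lower fitted level than in the D0 medium. Without the block, edgeR called 1 of them, TNNT2, where 13 genes or 0.0942% of those tested were called lower. TNNT2 had enough counts to be tested only with its D0 libraries, where it was high, which favoured a fall against D0. With the block edgeR called 4 (TPM1, CNN2, CNN3 and TNNT2) where 2.45% of all genes were called lower. DESeq2 called the same 4 where 0.949% were. The median log2 fold change of the 8 genes was -0.86 against 0.0037 over all genes tested. The 8 genes were lower within both experiments, as were 32.3% of all genes, and in 7 of them both D10 libraries lay below both D0 libraries, against 16% of all genes. TPM2 is a gene that the study itself named with ACTA2 from these samples, so its direction is not independent evidence. The 8 genes as a set were chosen with earlier results of these data known. Their shares beside those of all genes are therefore a description and not independent evidence either.

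**Figure D1:**
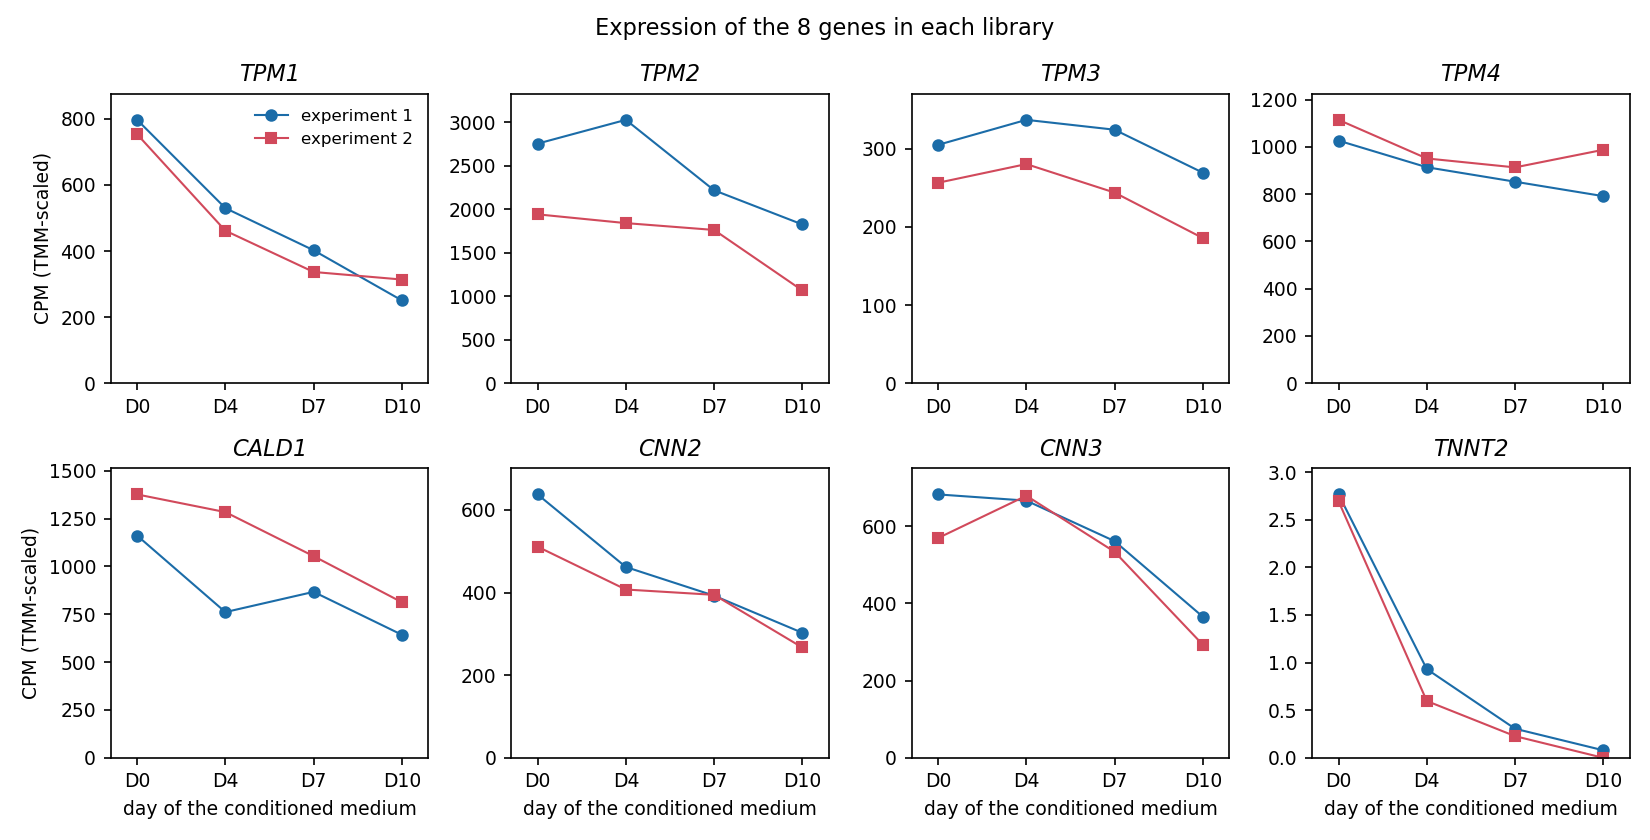
CPM after TMM scaling (vertical axes, each starting at 0) of the 8 genes in each library, by the day of the conditioned medium (horizontal axes, not to scale), with experiment 1 as circles and experiment 2 as squares, 1 library per point. TPM1, CNN2 and TNNT2 stepped down at every day in both experiments, TPM1 from 797 and 753 CPM at D0 to 251 and 314 at D10, while TPM3 and TPM4 moved little.

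TPM1, one of the main tropomyosins of muscle and of stress fibres, had the largest difference among the tropomyosins on the log2 scale, though not in CPM. Its level was 797 CPM in experiment 1 and 753 in experiment 2 at D0, 530 and 461 at D4, then 402 and 337 at D7 and finally 251 and 314 at D10. The libraries of successive groups did not overlap, and the mean at D10 was 36.4% of that at D0. For D4, D7 and D10 the log2 fold changes were -0.64, -1.07 and -1.46 (standard error 0.25 each), with edgeR adjusted p of 1, 0.371 and 0.0693. With the experiment as a block, edgeR's adjusted p was 0.304 at D4, 0.0390 at D7 and 0.00442 at D10, and DESeq2 gave 0.0116 at D7 and 8.46e-06 at D10. TPM1 thus passed at D7 and D10 in those fits and in the unblocked test at neither. Within experiments it was lower by a log2 change of -1.67 in experiment 1 and -1.26 in experiment 2 at D10. Ordered by the unblocked p at D10, it stood at place 81 of 13798 genes. At D4 it had reached 44.2% and at D7 73.3% of its D10 difference on the log2 scale.

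TPM2, the other tropomyosin of contractile fibres, was the most abundant of the 4 in every library, in counts and per kilobase of exon. It was at 2755 CPM in experiment 1 and 1942 in experiment 2 at D0, 3028 and 1841 at D4, then 2219 and 1763 at D7 and finally 1826 and 1067 at D10. Experiment 2 was lower than experiment 1 on every day, by a log2 difference of -0.58 (edgeR adjusted p = 0.0174 for the experiment term), so that D0 in experiment 2 lay close to D10 in experiment 1. Both D10 libraries were below both D0 libraries. The log2 fold change at D10 was -0.70 (standard error 0.40, edgeR adjusted p = 0.857). It was -0.59 in experiment 1 and -0.86 in experiment 2. The adjusted p was 0.0974 with edgeR's block and 0.932 with DESeq2, so TPM2 was not called here. The study placed TPM2 in its downregulated clusters, drawn from genes with a DESeq2 p under 0.05 on at least 1 day. Whether that p was adjusted was not stated, so the thresholds may differ. Without D10 of experiment 2 the log2 fold change was -0.36, and without D10 of experiment 1 it was -1.12. At D4 the change was 0.05, with opposite signs in the experiments.

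TPM3 and TPM4, the tropomyosins with broad use in non-muscle cells, moved less. TPM3 was at 305 and 257 CPM at D0, 337 and 280 at D4, then 324 and 244 at D7 and finally 270 and 186 at D10 in experiments 1 and 2. Its D10 libraries overlapped those of D0, since D10 of experiment 1 lay between the D0 libraries. The log2 fold change at D10 was -0.30, with a 95% interval from -0.95 to 0.34 (edgeR adjusted p = 0.998, 0.322 with the block), and it was -0.059 without D10 of experiment 2 and -0.58 without D10 of experiment 1. Like TPM2, it was lower in experiment 2 at every day (log2 difference -0.37, edgeR adjusted p = 0.0317 for the experiment term). TPM4 was at 1026 and 1114 CPM at D0, 914 and 951 at D4, then 852 and 913 at D7 and finally 791 and 987 at D10. All later libraries were below both D0 libraries, but the distance was small. Its log2 fold change was -0.20 at D4, -0.28 at D7 and -0.27 at D10, the last with a 95% interval from -0.84 to 0.31 (edgeR adjusted p = 0.998, 0.475 with the block). The D10 change of TPM4 was -0.43 without D10 of experiment 2 and -0.099 without D10 of experiment 1. Experiment 1 went on down to D10, whereas in experiment 2 TPM4 was higher at D10 than at D7.

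Summed over the 4 genes, tropomyosin RNA amounted to 4883 and 4066 CPM at D0 and 3137 and 2554 at D10, which is 64.2% and 62.8% of the D0 level in experiments 1 and 2. At D4 the sum was 98.5% and 86.9% of D0, and at D7 77.8% and 80.1%. The largest share of these reads in every library came from TPM2, with 52.1% ± 6.12 of tropomyosin counts at D0 and 49.99% ± 11.6 at D10 (SD, n = 2). Because the annotated exons of TPM2 are shorter, its share per kilobase of exon was larger, 76.4% at D0 and 73.4% at D10. The share of TPM1 went from 16.3% and 18.5% at D0 to 11.02% and 13.1% at D4, then 10.6% and 10.3% at D7 and finally 7.99% and 12.3% at D10, below D0 in every later library. The share of TPM4 was 21.0% and 27.4% at D0 and 25.2% and 38.7% at D10, higher within each experiment but with overlapping libraries. The share of TPM3 stood at 6.28% ± 0.0445 at D0 and 7.93% ± 0.929 at D10. In a single library the 95% Wilson interval of a share was at most 1.07 percentage points wide, covering counting error only. The TPM2 and TPM4 shares of the experiments lay further apart than their intervals on every day, whereas the intervals of TPM3 at D0 and of TPM1 at D7 overlapped. With 2 libraries against 2 no exact test can reach 0.05, and no p is given for these shares.

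**Figure D2:**
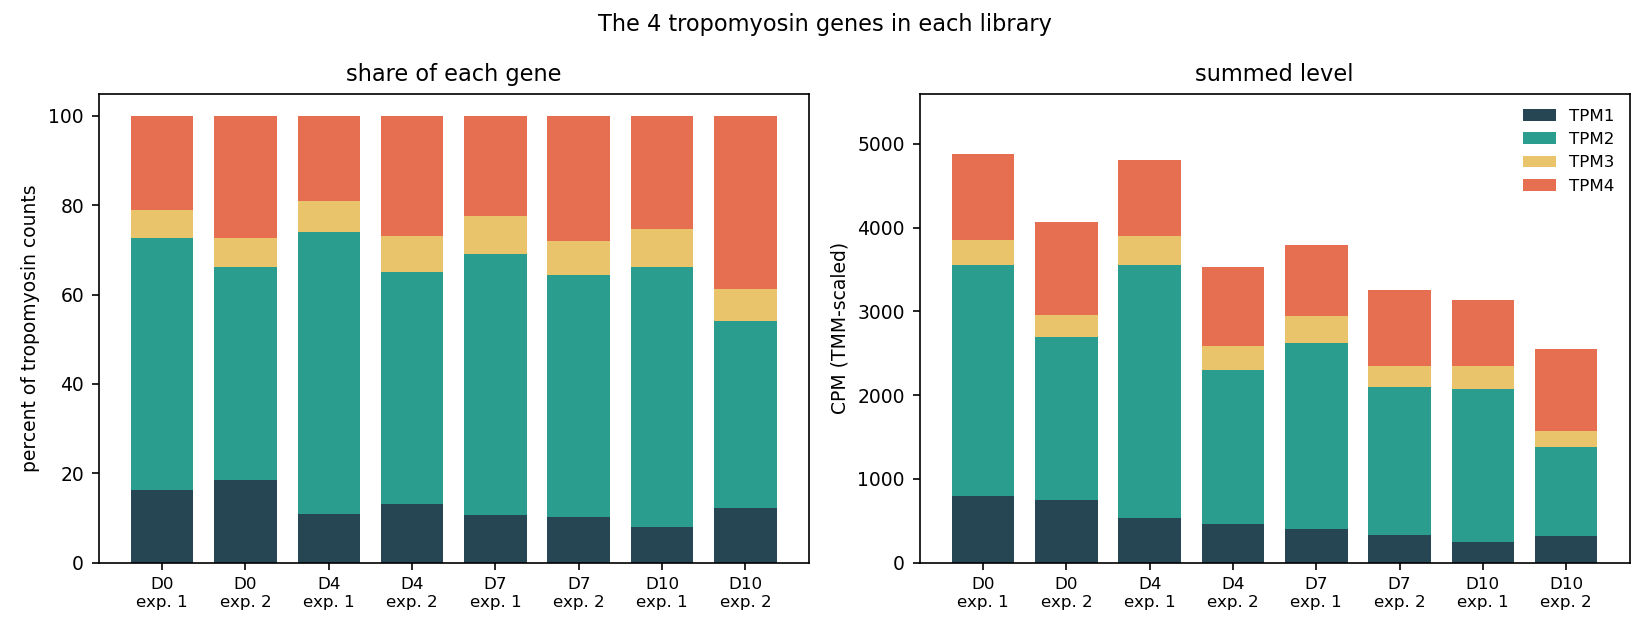
Left, percent of the counts of the 4 tropomyosin genes that came from each gene, and right, their CPM after TMM scaling stacked to the sum, in each of the 8 libraries (exp. 1 and exp. 2 are the experiments). TPM2 is the widest band in every library, the TPM1 band narrows from 16.3% and 18.5% at D0 to 7.99% and 12.3% at D10, and the sums at D10 are 3137 and 2554 CPM.

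CALD1, which encodes caldesmon, was at 1161 and 1376 CPM at D0, 761 and 1284 at D4, then 867 and 1054 at D7 and finally 643 and 813 at D10 in experiments 1 and 2. All D7 and D10 libraries were below both D0 libraries, whereas at D4 the library of experiment 2 lay between those of D0. The log2 fold change was -0.31 at D4, -0.40 at D7 and -0.80 at D10 (standard error 0.33, edgeR adjusted p = 0.571). The block left it just above the threshold at D10, with an edgeR adjusted p of 0.0566, and DESeq2 gave 0.382. The within-experiment changes at D10 were close to each other, -0.85 and -0.76. Without D4 of experiment 1 the D4 change was 0.01, so the D4 value rests on that library.

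CNN2, a calponin of fibroblasts and other motile cells, was at 637 and 511 CPM at D0, 462 and 407 at D4, then 392 and 394 at D7 and finally 303 and 267 at D10. Each group lay wholly below the one before it, and the mean at D10 was 49.6% of that at D0. The log2 fold change was -0.40 at D4, -0.55 at D7 and -1.01 at D10 (standard error 0.24), and the last had an edgeR adjusted p of 0.146. It passed at D10 with the block (edgeR adjusted p = 0.0101) and with DESeq2 (adjusted p = 0.00691). At D7 neither called it, with an adjusted p of 0.229 from edgeR with the block and 1 from DESeq2. Its changes at D10 were -1.07 in experiment 1 and -0.94 in experiment 2.

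CNN3, the acidic calponin, was at 682 and 569 CPM at D0, 666 and 679 at D4, then 561 and 533 at D7 and finally 365 and 293 at D10. At D4 it was within the range of the D0 libraries, at D7 just below them, and the D10 libraries lay below all others. The log2 fold change was 0.10 at D4, -0.19 at D7 and -0.93 at D10 (standard error 0.24), and at D10 the edgeR adjusted p was 0.205. It passed at D10 with the block (edgeR adjusted p = 0.0181) and with DESeq2 (adjusted p = 0.0211). Of its D10 difference 20.8% had been reached at D7, against 53.9% for CNN2 and 73.3% for TPM1. From D7 to D10 alone it was lower by a log2 change of -0.73 (edgeR adjusted p = 1.00, 0.153 with the block), which did not pass. Its changes at D10 were -0.90 and -0.96 in the experiments.

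TNNT2, cardiac troponin T, was far lower per kilobase of exon than the others and had the largest change. It had 33 counts in experiment 1 and 37 in experiment 2 at D0, 12 and 8 at D4, then 4 and 3 at D7 and finally 1 and 0 at D10. In CPM this was 2.77 and 2.69 at D0, 0.931 and 0.596 at D4, then 0.306 and 0.228 at D7 and finally 0.0792 and 0 at D10. Each group was below the one before it in both experiments. Scaled for library size, the D0 libraries together held 3.59 times the counts of D4 (95% exact interval 2.16 to 6.22), 10.2 times those of D7 (4.71 to 26.4) and 69.0 times those of D10 (11.99 to 2764), where the intervals cover counting error only and the last rests on 1 count. For D4, D7 and D10 the edgeR adjusted p was 1, 0.292 and 0.0402. With the block the edgeR adjusted p was 0.150, 0.0239 and 0.00309, and DESeq2 gave 0.0401 at D7 and 0.0109 at D10. The unblocked call at D10 was lost when any library other than D10 of experiment 1 was left out, with edgeR adjusted p from 0.0834 to 0.244, and also when only the D0 and D10 libraries were fitted (0.151). By size, 3 genes of 13798 had a larger fitted fall at D10. That place, like the calls, rests on the D0 counts that brought TNNT2 into the test.

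**Figure D3:**
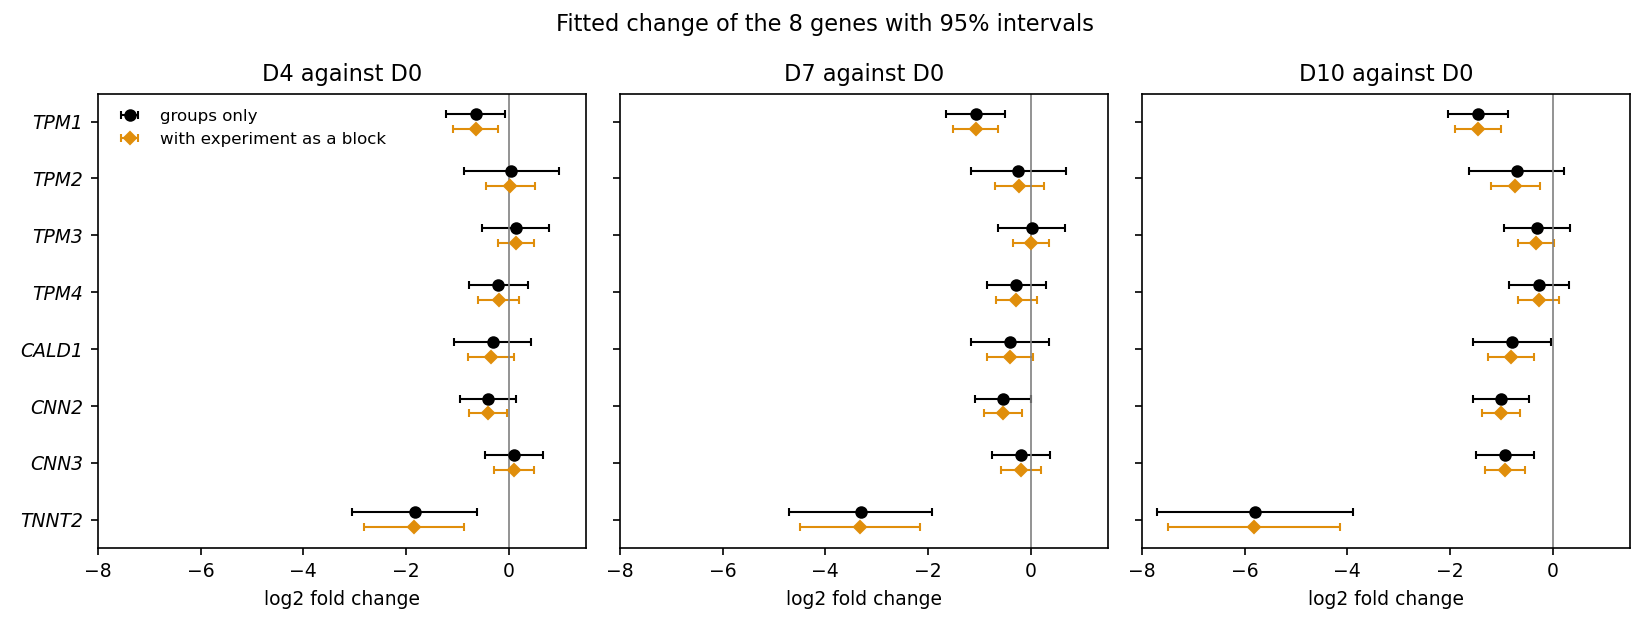
Log2 fold change against D0 (horizontal axes) of each gene at D4, D7 and D10, with 95% intervals, from edgeR fitted by group only (black circles) and with the experiment as a block (orange diamonds). The intervals of TPM1 and TNNT2 lie below 0 on all 3 days in both fits, those of TPM3 and TPM4 span 0 throughout, and the block narrows most intervals. These single-gene intervals are not adjusted for the number of genes, and the fitted TNNT2 value at D10 rests on 1 count.

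Stepping through the days, TPM1, CNN2 and TNNT2 went down at every step from D0 to D4 to D7 to D10 in both experiments, 3 of the 8 genes, against 200 of 13798 tested genes (1.45%). TPM4 and CNN3 did so only in experiment 1, TPM2 and CALD1 only in experiment 2, and TPM3 in neither. TNNT2 had enough counts to be tested only with its D0 libraries, which favoured its falls here and in the comparisons with D0 below. Its last step was from 4 and 3 counts at D7 to 1 and 0 at D10. At D4, 5 of the 8 were lower in both experiments (28.9% of all genes), TPM3 was higher in both (0.14 and 0.13), and TPM2 and CNN3 had opposite signs. Both D4 libraries lay below both D0 libraries in 4 of the 8, against 12.6% of all genes. None of the 8 was called at D4 by edgeR, by edgeR with the block, which called 0.275% of all genes, or by DESeq2, which called 0.287%. At D7, 7 of the 8 were lower in both experiments (31% of all genes), and 6 of the 8 did not overlap D0, against 15.2%. There, 2 of the 8 (TPM1 and TNNT2) were called lower with the block, where 0.739% of all genes were, and by DESeq2, where 0.406% were. No gene of the 8 was called between D4 and D7, where edgeR called 0% of all genes with or without the block and DESeq2 0.00361%. None was called between D7 and D10 either, where the shares were 0% for edgeR, 0.319% with the block and 0.446% for DESeq2. The D4, D7 and D10 values share the D0 libraries.

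Ranked by level per kilobase of annotated exon, the order at D0 was TPM2 (723 CPM per kb), CNN3 (220), CNN2 (158), CALD1 (129), TPM4 (124), TPM1 (60.2), TPM3 (33.5) and TNNT2 (0.376), as means of 2 libraries. CALD1 and TPM4 overlapped between libraries, and the other neighbours did not. At D10 the order was TPM2 (445), CNN3 (116), TPM4 (103), CNN2 (78.1), CALD1 (74.0), TPM3 (27.1), TPM1 (21.9) and TNNT2 (0.00545). The libraries of CNN3 and TPM4, of CNN2 and CALD1, and of TPM3 and TPM1 overlapped at D10. TPM1 was thus above TPM3 in both libraries at D0 and no longer so at D10, and CNN2 went from above TPM4 to below it. The exon lengths are those of all annotated transcripts joined, so these levels are approximate for genes with many alternative ends.

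The genes act on the same filament as actin and myosin II, and many genes of contractile fibres are known targets of serum response factor (SRF), which binds the CArG box together with cofactors that sense free actin. At D10 the tested actin genes numbered 4, all with a negative change, where the median over all genes tested was 0.0037. ACTA2, the smooth muscle actin of myofibroblasts, was at 1347 and 1164 CPM at D0 and 225 and 145 at D10 (log2 fold change -2.76, edgeR adjusted p = 0.0399), and ACTG2 was called as well with the block. Of the calponin relatives 3 were tested. TAGLN was at 2124 and 1699 CPM at D0 and 754 and 564 at D10 (log2 fold change -1.54, edgeR adjusted p = 0.131, 0.00333 with the block), CNN1 passed with the block too (log2 fold change -1.42), and TAGLN2 was at -0.07. The calponins of this table therefore included CNN1, CNN2 and CNN3, all called lower with the block at D10.

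Of the tropomodulins and leiomodins, which cap or nucleate tropomyosin-coated filaments, 4 were tested, and 2 had a negative change. LMOD1 was at 169 and 151 CPM at D0 and 76.2 and 39.9 at D10 (log2 fold change -1.46, edgeR adjusted p = 0.112, 0.00867 with the block), and TMOD1, TMOD2 and TMOD3 were not called. In the list of conventional myosin II chains with their light chain kinase and phosphatase, 11 of 11 tested genes had a negative change. Their median was -0.43, against 0.0037 over all genes tested. None was called without the block or by DESeq2, and MYH11 and MYL9 were called lower with the block. MYH11, the smooth muscle heavy chain, had 12 and 17 counts with D0 medium and 2 and 0 with D10 medium. D0 thus held 14.3 times the counts of D10 (95% exact interval 3.62 to 124, counting error only). Like TNNT2, MYH11 had enough counts to be tested only with its D0 libraries. Of 10 tested genes in the list of SRF, its cofactors and its targets, 9 had a negative change with a median of -0.45. ANKRD1, a muscle ankyrin repeat protein, was at 12.1 and 10.3 CPM at D0 and 2.14 and 1.74 at D10 (log2 fold change -2.53, edgeR adjusted p = 0.0550, 0.00182 with the block). FHL2 passed with the block too, and SRF itself was at -0.14. CTGF and CYR61 of the same list were at 0.15 and -0.066, each with opposite signs in the experiments, and were not called.

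**Figure D4:**
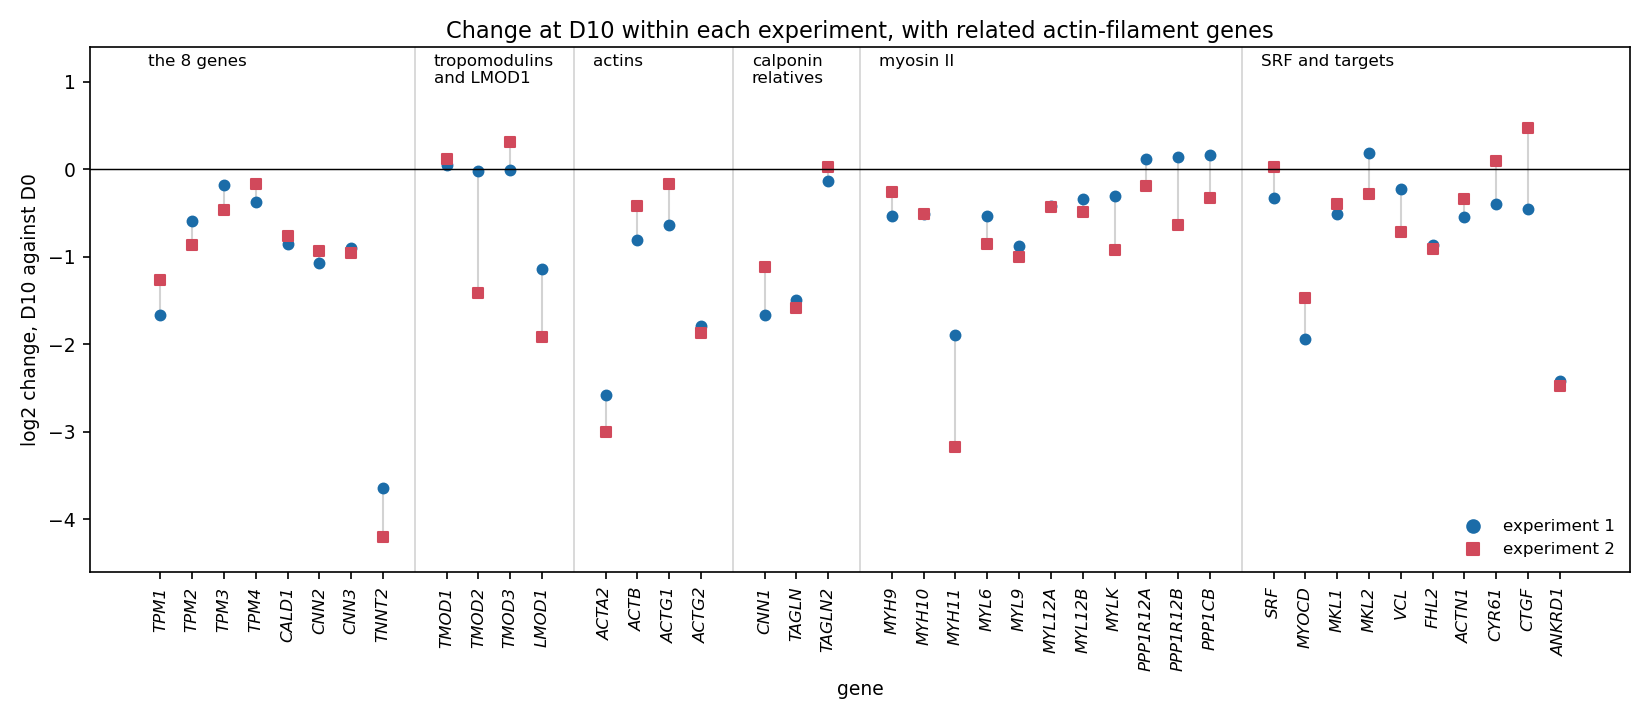
Log2 change from D0 to D10 within experiment 1 (circles) and experiment 2 (squares), from log2 CPM with a prior count of 2, for the 8 genes and the tested genes of 5 related lists, 1 column per gene. All 8 genes lie below 0 in both experiments, with TPM1 at -1.67 and -1.26 and TPM4 at -0.37 and -0.17, and ACTA2 lies at -2.58 in experiment 1.

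Troponin T works in a complex with troponins I and C, and of 7 other troponin subunit genes 4 were in the table and none had enough counts to be tested. Their summed level was between 0.149 and 0.687 CPM in every library, with 0.655 and 0.670 at D0 and 0.631 and 0.633 at D10. Of 10 cardiac muscle markers 3 were in the table, MYL7, MYL3 and NPPB, each with 1 count over all libraries, and none of them had a count at D0 or D10. Of 8 skeletal muscle markers 5 were in the table, and their summed level did not exceed 0.447 CPM. Among the markers of differentiated smooth muscle, 6 of 7 were in the table and 5 were tested. Their sum was 257 to 304 CPM at D0 and 146 to 228 at D10, where 4 of the 5 had a negative change. SMTN, a smooth muscle cytoskeletal protein, went the other way, from 112 and 77.7 CPM at D0 to 142 and 91.3 at D10 (log2 fold change 0.30, not called). LMOD1 and MYH11 were called lower with the block, of which DESeq2 called LMOD1, and DES, the muscle intermediate filament, had 2 counts over all libraries. The 5 endothelial markers summed to 42.5 to 122 CPM, nearly all from TEK, the 5 epithelial markers to 23.6 to 65.0 CPM, nearly all from KRT18, and 4 leukocyte markers to 1.53 to 3.77 CPM. KRT18, at 53.9 and 36.3 CPM at D0 and 28.7 and 22.6 at D10, was called lower with the block but not by DESeq2, and its part in the changes of the 8 genes was not tested. Among the 8 fibroblast markers, 7 had a negative change at D10 with a median of -0.86, close to that of the 8 genes followed here, and the part of these markers in their changes was not tested. PDGFRB and DCN were called lower with the block, and DESeq2 called 1 fibroblast marker lower.

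Around their start sites the genes were compared for 2 motifs in the 250 bases upstream, taken from RefSeq promoters on GRCh38.p14, which held 16 promoters for the 8 genes. A CArG box on either strand was found in 2 of the 16 (12.5%), 1 of CNN2 and 1 of TPM4, against 407 of 35116 promoters of all genes (1.16%). The motif CATTCC or its reverse complement GGAATG, the core bound by TEAD factors, was found in 4 of the 16 (25.0%), against 11.9% of all promoters. The lines give 30 bases each, 5′ to 3′ on the strand of the gene, with the match in capitals: CNN2 at chr19:1026509-1026538 on the plus strand, TPM4 at chr19:16067355-16067384 on the plus strand and TNNT2 at chr1:201377744-201377773 on the minus strand.
CNN2: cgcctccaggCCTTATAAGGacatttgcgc
TPM4: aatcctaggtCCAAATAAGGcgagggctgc
TNNT2: tcccctgtcgcaCATTCCtccctccgcagg

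The CArG box lies 89 to 80 bases before the start in CNN2 and 173 to 164 in TPM4, and the CATTCC match lies 81 to 76 bases before the start in TNNT2, where 19 of the 30 bases printed fall in an exon annotated in GENCODE 29. The CArG matches thus fell to 1 gene that was called lower at D10 with the block, CNN2, and to 1 whose interval spanned 0, TPM4. No CArG box was found in these windows of TPM1 or TNNT2, which says only that those letters are not there. The TPM1 window (chr15:63048239-63048488) lies inside the gene, downstream of the coding stretch printed above. The TPM3 and TPM4 windows also lie inside their genes. The CArG match of TPM4 is thus before a RefSeq start but downstream of the 5′ end of the gene in GENCODE 29. The bases before the annotated 5′ ends of TPM1, TPM3 and TPM4 were therefore not searched. The other CATTCC matches were in 2 promoters of CALD1 and 1 of CNN3, all inside the annotated genes. For 1 of the CALD1 matches (GGAATG), all 30 bases around it fall in an annotated exon.

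Genes with a course like that of each member were sought among 9051 tested genes with a mean of at least 10 CPM, by the mean absolute difference of the 6 log2 changes against D0, for 3 days in 2 experiments. Nearest to TPM2 were MFGE8 (difference 0.0481) and PALM (0.0711), nearest to CNN2 were FZD7 (0.0659) and IDH2 (0.0979), and nearest to CNN3 were NUDT11 (0.0694) and again MFGE8 (0.115). TPM3 had RAB11FIP5 (0.0465) and DYNC1LI1 (0.0482) nearest, and TPM4 had LRRC42 (0.0368) and SSBP2 (0.0487). CALD1 lay nearest to LACTB (0.107) and AL391422.3 (0.111). TPM1 had no neighbour as close, with NUPR1 at 0.173, nor did TNNT2, with TMEM52B at 0.659 and GCNT4 at 0.703.  The closest pair within the set was CNN3 and TPM2, at 0.163. Even so, 20 genes lay nearer to CNN3 than TPM2 did, and 126 lay nearer to TPM2 than CNN3 did.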

How the data were processed

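For 8 libraries (poly(A) RNA, stranded kit) the authors deposited read counts per gene, not normalized, beside RPM values. These deposited RPM columns equalled counts over library totals for all 221568 values (tolerance 0.006) and were not used further. The submitters' processing notes name STAR 2.5, DESeq2 and GRCh38. The counter, annotation and strand setting were not given in the sources used here. A header reading DO was taken as D0 replicate 1.

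Counts were filtered with filterByExpr, scaled by TMM (factors 0.948 to 1.08) and fitted by group with edgeR 4.0.16 (R 4.3.3). DESeq2 1.42.0, the study's tool, other scalings and filters, the compared groups only, the replicate block and leaving out each library were alternatives. The replicate numbers mark 2 independent experiments, and libraries with the same number deviated together from the means of their groups (Pearson's r of 0.418 to 0.722 in the 6 pairs of groups, across genes, which are not independent). Log2 CPM used a prior count of 2. The members and lists were chosen with earlier results of these data known. Named genes are the 8 members, the 2 genes nearest to each, their pseudogenes, and for each list its counts and the gene with the smallest adjusted p at D10. Other genes were named after their values were seen. The fits and the exact intervals of count ratios were also run on simulated data, whose outcome is not given here. For the fits, changes were planted only in well-counted genes, so genes as low as TNNT2 were not covered. Promoters and transcripts were read from RefSeq (GRCh38.p14) and GENCODE 29. Protein sequences were not used here. One of the nearest genes and one sequence are not reported here.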

Additional observations from a re-analysis of the deposited data

Results flagged for a closer look

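In 3 cases a gene moved in opposite directions in the experiments, and these differences between experiments were not tested. TPM2 at D4 had a log2 change against D0 of 0.14 in experiment 1 and -0.077 in experiment 2. CNN3 at D4 had -0.034 in experiment 1 and 0.25 in experiment 2. TPM3 at D7 had 0.089 in experiment 1 and -0.073 in experiment 2. None of these 3 genes was called on the day in question by edgeR, by edgeR with the block or by DESeq2.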

How the results depend on the processing

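The number of calls changed with the tool, the filter and the block, and the D10 direction of the 8 genes was kept under every alternative run. Genes called over the whole table were 0 at D4, 0 at D7 and 40 at D10. DESeq2 called 44, 112 and 379, no filter 21, 93 and 371, and the replicate block 38, 172 and 688. At D10 plain library totals called 25, at least 10 counts in every library 20 (a filter that TNNT2 did not pass), and the compared groups only 0. Leaving out 1 library gave 0 to 155 genes and 0 to 1 of the 8 genes at D10, and 0 at D4 and D7. The lowest, 0, came without either D0 library, and the highest without D10 replicate 1. It was 15 without either D4 library, 14 without either D7 library and 11 without D10 replicate 2. Of the 8 genes, 1 was called at D10, against 4 with the replicate block, 4 with DESeq2, 2 with no filter (TPM1 and TNNT2), 0 with at least 10 counts and 0 with the compared groups only. At D7 0 were called, against 2 with the replicate block, 2 with DESeq2 and 1 with no filter. The lower share of the D10 calls was 32.5%, 43.8% with DESeq2 and 49.1% with the replicate block. From D7 to D10 the block called 44 and DESeq2 66 genes, and from D4 to D7 0 and 1, none of them among the 8. Apart from the calls named here and in the results, pairing by the block changed no call of the 8 genes. Per kilobase of exon, TPM2 made up 76.4% of tropomyosin counts at D0 in place of 52.1%, and 73.4% at D10 in place of 49.99%, by construction.

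Signs turned only at D4 and D7, among changes that were not called, up to the -0.31 of CALD1 at D4 and the -0.24 of TPM2 at D7. At D4 TPM2 was at -0.18 without D0 replicate 2 and ran from -0.35 (without D4 replicate 1) to 0.37 over the libraries left out, CNN3 from -0.022 (without D0 replicate 2) to 0.24, TPM3 from -0.0044 (without D4 replicate 1) to 0.27, and CALD1 from -0.73 to 0.013 (without D4 replicate 1). At D7 TPM2 ran from -0.47 to 0.033 (without D0 replicate 1), and TPM3 was at -0.10 without D0 replicate 2 and ran from -0.20 (without D7 replicate 1) to 0.21. Where a group had 1 library left, it was assumed to vary like the others. The cause of these differences was not tested. With 2 libraries per group the fit has few degrees of freedom, and the depth limits TNNT2, at 70 counts in both D0 libraries together and 1 at D10.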
